A study of Mus musculus with 108 samples.

Results

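In the liver of mice aged 12 months on standard diet, 25880 autosomal stretches were in state 7 that were quiescent in mice aged 3 months, while in mice of the same age under caloric restriction the same stretches carried the quiescent label. They were chosen by their labels alone. A bin of 200 bp was taken where SD 3m had state 8, SD 12m state 7 and CR 12m state 8 again, adjacent bins were merged, and every stretch of 1 kb or more was kept. The 25880 stretches are part of 350777 autosomal stretches of 1 kb or more that carry 1 combination of states across the 3 groups. They cover 184 Mb, or 7.45% of the autosomal bins.

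Chromatin was extracted from archived liver tissue (fixed in formalin and kept in paraffin) of female C57BL/6 mice. SD 3m held 8 mice aged 3 months on standard diet, SD 12m held 8 mice aged 12 months on standard diet, and CR 12m held 9 mice aged 12 months that had been placed on caloric restriction as young adults. ChIP-seq libraries of 4 histone marks (H3K4me3, H3K27me3, H3K27ac and H3K4me1) were merged within a group before the states were called, so each group has 1 segmentation, mice are not replicates in it, and no test across mice could be made. The SD 6m group was not analysed here. A change in every cell and a change in some cells cannot be told apart in such pooled tissue.

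ChromHMM, the tool behind the segmentations, reads several marks together and gives each bin the state that its combination of marks resembles most. H3K4me3 sits at active promoters, H3K27me3 is laid down by Polycomb complexes on silent developmental genes, and H3K27ac and H3K4me1 mark enhancers. State 8 is quiescent chromatin with none of the 4 marks, which in a hepatocyte is typical of gene-poor DNA and of genes that belong to other tissues. State 7 holds a weak trace of H3K4me3 and minimal H3K27me3, without H3K27ac or H3K4me1. The study tied it to repeats and to lamina-associated domains, the gene-poor, AT-rich DNA that lies at the nuclear envelope in most cell types. It found the same features enriched in state 8 as well. The label of the tissue held, as the TSS of all 10 hepatocyte markers (such as Alb, the main plasma protein, and Hnf4a, a master regulator of hepatocytes) lay in states 1 to 4 in each group. Of 5 transcription factors of other tissues, 4 had the TSS in the Polycomb state 6 in SD 3m and CR 12m, and all 5 in SD 12m.

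The DNA of the stretches was poor in G and C, and the central bin of each of the 3 longest stretches is shown for that reason, with G and C in capitals (GRCm38.p6, the reference release of mm10, plus strand). The fourth sequence is the central bin of the stretch nearest to the longest one that stayed in state 8 in all 3 groups.
chr14:81749601-81749800, longest stretch: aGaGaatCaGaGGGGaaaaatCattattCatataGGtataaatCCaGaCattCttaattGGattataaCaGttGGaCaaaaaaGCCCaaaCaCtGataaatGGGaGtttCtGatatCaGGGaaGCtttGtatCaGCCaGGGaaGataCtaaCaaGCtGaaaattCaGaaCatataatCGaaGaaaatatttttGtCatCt
chr6:61663601-61663800, second longest stretch, in Ccser1: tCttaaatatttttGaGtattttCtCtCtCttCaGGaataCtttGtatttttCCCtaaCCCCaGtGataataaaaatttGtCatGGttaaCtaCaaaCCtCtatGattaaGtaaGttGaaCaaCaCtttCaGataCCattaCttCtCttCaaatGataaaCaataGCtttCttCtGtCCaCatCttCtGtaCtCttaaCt
chr8:51856801-51857000, stretch next in length: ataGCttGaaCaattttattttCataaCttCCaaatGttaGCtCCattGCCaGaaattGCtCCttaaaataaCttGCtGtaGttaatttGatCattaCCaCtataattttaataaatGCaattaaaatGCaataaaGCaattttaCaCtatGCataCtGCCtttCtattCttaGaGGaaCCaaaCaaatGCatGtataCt
chr14:81794601-81794800, neighbouring stretch in state 8 throughout: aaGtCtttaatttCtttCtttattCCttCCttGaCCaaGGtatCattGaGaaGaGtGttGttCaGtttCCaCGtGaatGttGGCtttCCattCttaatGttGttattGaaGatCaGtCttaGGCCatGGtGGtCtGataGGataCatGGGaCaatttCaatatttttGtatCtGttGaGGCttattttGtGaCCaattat
Of the 200 bases of each bin, 66, 61 and 57 were G or C in the 3 stretches and 70 in the neighbour. CpG dinucleotides numbered 1, 0 and 0 in the stretches and 1 in the neighbour. The neighbour starts where the longest stretch ends and runs for 7.4 kb with 44.0% GC, so its central bin is poorer in GC than the rest of it.

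Few genes had their start inside a stretch, and most of those that encode proteins were receptors of smell. For this reason the promoters of an odorant receptor gene, a pheromone receptor gene and Klhl1, which encodes a neuronal kelch-like protein, are given as 300 bases in the sense of the gene, from 250 bases before its annotated start to 50 after (RefSeq, GRCm38.p6). Capitals mark CpG.
Olfr299, chr7:86465163-86465462, plus strand: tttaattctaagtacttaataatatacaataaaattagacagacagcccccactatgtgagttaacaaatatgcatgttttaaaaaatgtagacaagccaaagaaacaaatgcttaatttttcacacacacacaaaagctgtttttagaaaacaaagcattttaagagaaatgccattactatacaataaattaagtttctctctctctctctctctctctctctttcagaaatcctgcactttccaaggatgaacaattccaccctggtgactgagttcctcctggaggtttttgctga
Vmn1r70, chr7:10633337-10633636, plus strand: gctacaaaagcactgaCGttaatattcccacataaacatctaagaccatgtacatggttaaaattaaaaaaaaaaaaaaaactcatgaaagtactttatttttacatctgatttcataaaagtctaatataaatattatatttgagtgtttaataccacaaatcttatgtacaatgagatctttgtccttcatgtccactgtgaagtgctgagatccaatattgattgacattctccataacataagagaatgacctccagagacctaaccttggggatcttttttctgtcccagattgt
Klhl1, chr14:96518985-96519284, minus strand: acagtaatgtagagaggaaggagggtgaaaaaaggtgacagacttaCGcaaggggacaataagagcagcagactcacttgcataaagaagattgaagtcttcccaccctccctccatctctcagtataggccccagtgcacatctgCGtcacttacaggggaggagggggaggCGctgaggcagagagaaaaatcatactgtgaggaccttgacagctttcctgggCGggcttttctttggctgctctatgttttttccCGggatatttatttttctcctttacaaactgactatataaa
The Olfr299 promoter held 0 CpG, that of Vmn1r70 held 1 and that of Klhl1 held 5. Olfr299 and Olfr298 share a stretch of 46.6 kb, Vmn1r70 lies in a stretch of 44.8 kb and the start of Klhl1 in 1 of 37.8 kb.

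Among all autosomal bins that were quiescent in SD 3m, 15.8% were in state 7 in SD 12m and 5.01% were in state 7 in CR 12m. The combination that defines the stretches took 11.4% of them. These shares are what the rule used and are given as a description. In SD 12m state 7 covered 292 Mb of the autosomes, and 62.8% of those bins lay in the stretches. CR 12m was built from 5 H3K4me3 libraries, SD 12m from 8 and SD 3m from 7. H3K27me3 libraries numbered 6 in CR 12m, 8 in SD 12m and 7 in SD 3m. The read depth behind the labels is unknown, so the part of the depth of either mark in the difference was not tested.

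Stretches were short for the most part. Their median length was 4800 bp, their 25th and 75th percentiles were 2400 and 9200 bp, and the longest reached 82.6 kb. Only 1460 were 20 kb or longer, and these held 22.1% of all bases. At the length limit, 1275 stretches measured 1000 bp and 1270 measured 800 bp and fell outside. The 4915 stretches under 1 kb held 1.29% of the bins with the combination. Longer stretches were poorer in GC. GC content was 38.8% in stretches under 2 kb and 36.7% in those of 20 kb or more, and CpG density went from 6.46 to 4.34 per kb.

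The base composition, which the rule did not use, set the stretches apart from lasting quiescence, meaning stretches of 1 kb or more in state 8 in all 3 groups. GC content was 37.3% in the stretches against 41.1% in lasting quiescence and 41.9% over the autosomes. It was lower than in lasting quiescence on 19 of 19 autosomes, and the chromosome values of both sets did not overlap, with 36.6% to 38.1% in the stretches and 40.03% to 42.1% in lasting quiescence. Single stretches spread more widely. Their 5th and 95th percentiles were 33.2% and 44.0% GC, and 10.2% of the stretches exceeded the autosomal value. CpG dinucleotides numbered 4.77 per kb in the stretches and 7.55 per kb in lasting quiescence, again lower on 19 of 19 autosomes. The observed over expected CpG ratio, which takes the number of C and G bases into account, was 0.137 in the stretches and 0.178 in lasting quiescence, and lower on each of the 19 autosomes. Runs of 8 or more A or T of 1 kind made up 5.41 bases per kb against 4.75.

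The repeat content did not set them apart in the same way. Bases that the reference marks as repeats made up 38.8% of the stretches and 39.4% of lasting quiescence, and the stretches were lower on 12 of 19 autosomes and higher on the rest. Both values were above the 33.5% of the autosomes. The closest comparison is with the 11333 stretches (65.1 Mb) that went from state 8 to state 7 in SD 12m and in CR 12m alike. Their GC content was 37.3% as well, and the stretches were lower on 11 of 19 autosomes. Repeats, however, made up 41.7% of that set, and the SD 12m-only stretches held fewer on 19 of 19 autosomes. CpG density was 5.10 per kb in that set, with lower values for the SD 12m-only stretches on 17 autosomes. That set was also shorter, with a median of 4000 bp against 4800 bp. Among the SD 12m-only stretches, CpG density was lower in longer ones, and repeats went from 39.6% under 2 kb to 37.5% at 20 kb or more. No correction for length was made. A contrast in the other direction came from the 12288 stretches that went from state 8 to the Polycomb state 6 in SD 12m only. These had 41.7% GC and 26.3% repeats, so that the stretches in state 7 were lower in GC and higher in repeats on all 19 autosomes.

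The share of quiescent DNA that lay in the stretches differed with distance from genes and with GC content. Of the fully assembled bins in state 8 in SD 3m, 4.14% lay in the stretches at 10 to 50 kb from the nearest protein-coding TSS, 8.80% at 100 to 250 kb, 25.3% at 500 to 1000 kb and 36.8% beyond 1000 kb. Nearer than 10 kb the share was 5.16%, slightly above that of the next class. By GC content the share went from 23.4% in bins under 30% GC to 4.66% in bins of 50% GC or more. Within a distance class the share still differed with GC content. At 10 to 50 kb the share was 10.4% under 30% GC and 1.44% at 50% GC or more. Beyond 1000 kb the ratio between the same classes was smaller, at 41.2% and 33.4%. The bins of the stretches had a median distance of 414209 bp to a protein-coding TSS, against 117249 bp in lasting quiescence and 436531 bp in the set that was in state 7 under both diets. Bins of one neighbourhood are not independent, so these shares carry no test.

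**Figure D1:**
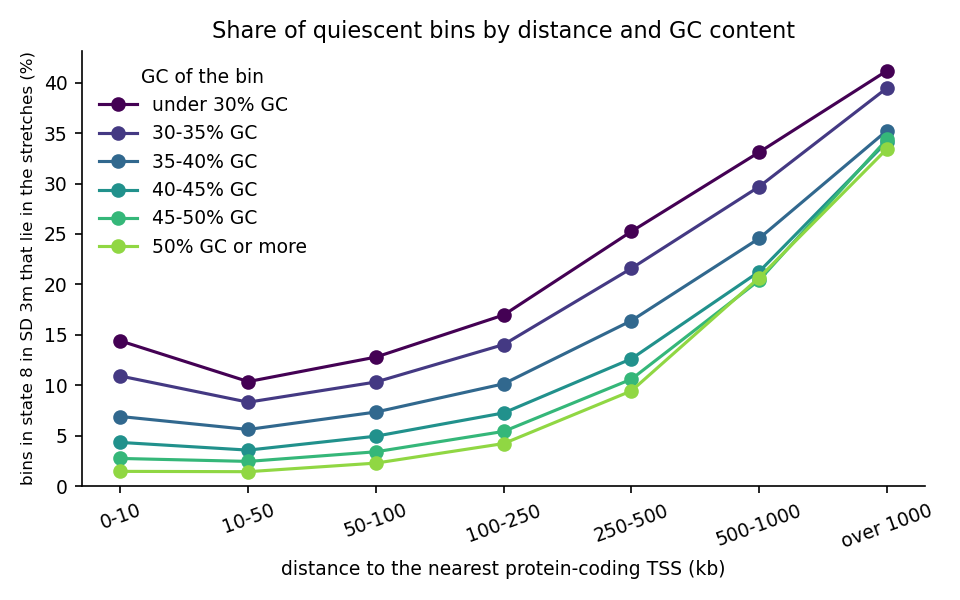
Percent of SD 3m quiescent bins that lie in the stretches (y axis), by distance to the nearest protein-coding TSS in kb (x axis) and by GC content of the bin (1 line per class). Every line climbs from the 10 to 50 kb class onwards, and the line under 30% GC lies highest at every distance, from 10.4% to 41.2%.

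The part of the change that was absent from CR 12m varied less over the same classes. Of the bins that changed label from state 8 to state 7 between SD 3m and SD 12m, the stretches held between 66.3% and 74.1% in every distance class, and between 67.2% and 72.4% in every GC class.

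The stretches were crowded into part of the genome. Of 2397 autosomal blocks of 1 Mb, 711 held no base of a stretch, and the 240 blocks with the most held 53.8% of all bases in stretches. Blocks without a protein-coding TSS made up 11.5% of the blocks and held 39.3% of the bases. Such blocks had a median of 266200 bp in stretches, while the 750 blocks with 10 or more TSS had a median of 0. The fullest block, on chromosome 14 from 109000001 to 110000000, held 606 kb in 43 stretches and no protein-coding TSS. In the block next to it, from 108000001 to 109000000, the 571 kb in stretches surrounded a single protein-coding TSS, that of Slitrk1, a neuronal membrane protein that shapes neurite growth. The median gap from a stretch to the next was 13.0 kb, and 40.8% of the gaps were under 10 kb.

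Chromosome 1 had the highest share of its state 8 bins in stretches, 17.2% in 2859 stretches, and chromosome 19 the lowest, 1.56% in 127 stretches. From the lowest value up, chromosome 1 ranked 3 of 19 in GC content and 3 in density of protein-coding genes, and chromosome 19 ranked 17 on both counts. The other autosomes did not follow one order. Chromosome 4 had the share ranked 3 from the top (15.8%) although it ranked 12 in GC content and 13 in gene density. Chromosome 12 had the lowest gene density and ranked 11 in share (11.6%), chromosome 16 ranked 2 in GC content and 12 in share (10.1%), and chromosome 18 ranked 2 in gene density and 17 in share (6.01%). Of the bins that were quiescent in SD 3m and in state 7 in SD 12m, the part in the stretches ranged from 60.2% on chromosome 13 to 80.4% on chromosome 16.

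**Figure D2:**
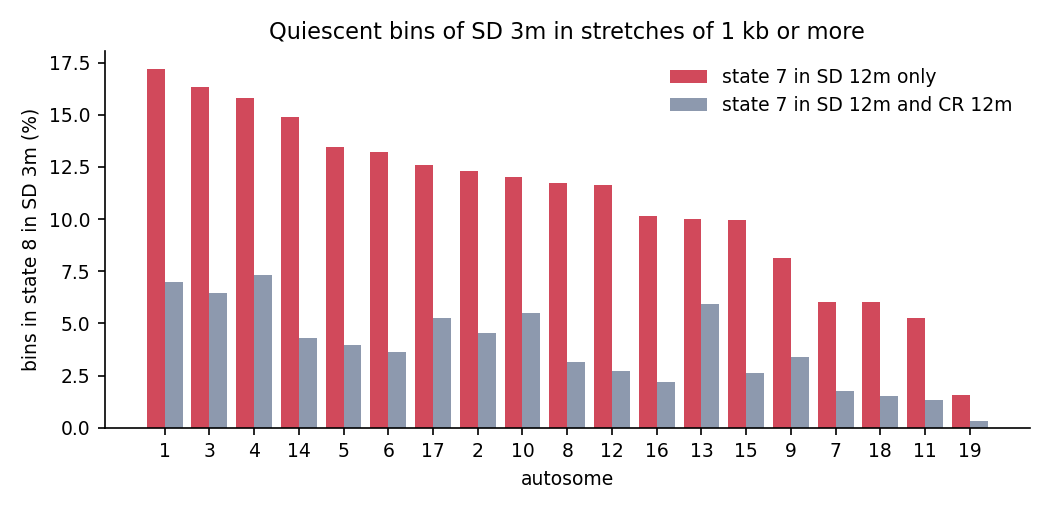
Percent of SD 3m quiescent bins (y axis) that lie in stretches of 1 kb or more in state 7 in SD 12m only, or in SD 12m and CR 12m, for each autosome (x axis), ordered by the former. Chromosome 1 stands at 17.2% and chromosome 19 at 1.56%, and the SD 12m-only bar is the higher on every autosome.

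In the surroundings of the stretches state 7 was common in SD 12m as well. At 50 kb to either side of the centre, state 7 took 41.8% of bins for SD 12m, 14.1% for CR 12m and 2.98% for SD 3m, compared with 12.2%, 4.47% and 1.97% over the autosomes. At 200 kb the values were still 39.3%, 13.4% and 2.97%. The stretches were not alone in this. At 50 kb from the set in state 7 under both diets, state 7 took 52.4% for SD 12m, 21.2% for CR 12m and 4.64% for SD 3m, all higher, and at 50 kb from lasting quiescence 16.2%, 5.41% and 2.29%, lower than around the stretches and still above the autosomes. The Polycomb state 6 took 6.30% of bins at 50 kb from the stretches in SD 12m, against 4.67% for the set in state 7 under both diets, 11.6% for lasting quiescence and 12.7% over the autosomes.

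**Figure D3:**
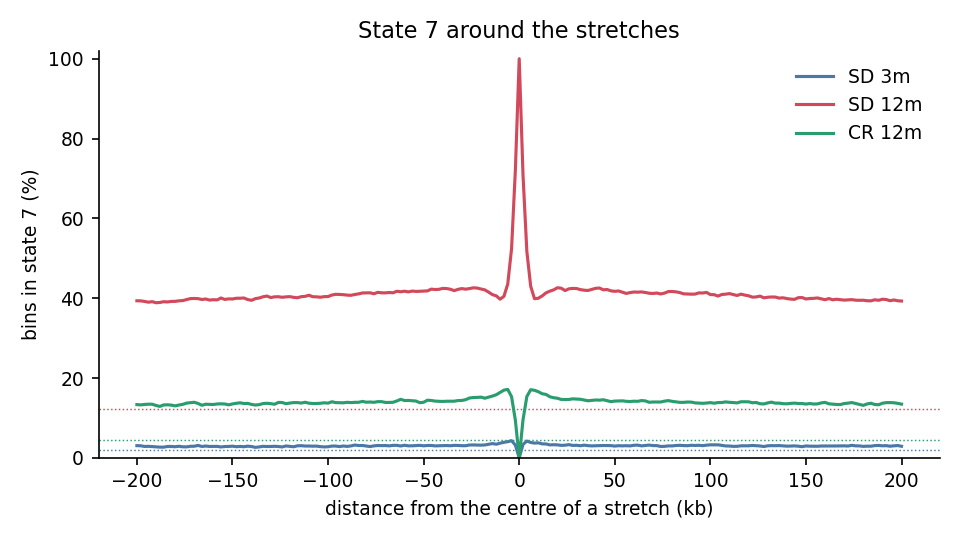
Percent of bins in state 7 (y axis) against the distance from the centre of a stretch in kb (x axis) for each group, over the 25853 stretches that lie at least 200 kb from a chromosome end, with dotted lines at the autosomal values. The centre is fixed by the rule, and beyond it SD 12m levels off near 40%, CR 12m near 14% and SD 3m near 3%.

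Each stretch lies in 1 unbroken run of state 7 in SD 12m, called a domain here, and the rest of the domain is not fixed by the rule. The 25880 stretches fell in 19683 domains. Of the stretches, 52.0% lay in a domain that also held state 7 in CR 12m, and 48.0% in a domain without any. Domains shared with CR 12m had a median of 16800 bp and reached 284600 bp, whereas those without CR 12m state 7 had a median of 4800 bp and reached 73.0 kb. A longer domain has more bins in which CR 12m can carry state 7, and no correction for length was made. The stretch filled its whole domain in 40.9% of cases, touched 1 end of it in 44.6% and lay inside it in 14.5%. In the 5651 shared domains of 10 kb or more, CR 12m state 7 took 31.5% and 32.1% of bins at the outer ends (the first and the last of 10 equal parts) and 42.3% in part 5. The stretches correspondingly took 63.2% and 63.1% at the ends and 54.95% in part 5. At the borders of the stretches, 63.0% of the neighbouring bins differed in the SD 12m label only, 29.9% in the CR 12m label only and 6.57% in the SD 3m label only.

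Each of the 5 longest stretches was far from protein-coding starts, or inside a giant gene. The longest (chr14:81708401-81791000, 82.6 kb, 35.6% GC) overlaps part of Gm41219, a lncRNA gene, and its nearest protein-coding genes are Olfm4 at 1685 kb and Pcdh17 at 2653 kb. Its domain began at 81701001 and held 5.6 kb of state 7 in CR 12m. The second (chr6:61627201-61700200, 73.0 kb, 36.7% GC) lies within Ccser1 and was a domain of its own, with state 8 in all groups on either side. The next (chr8:51820601-51893200, 72.6 kb, 35.9% GC) holds only the pseudogene Gm6458, and its domain held 14.8 kb of state 7 in CR 12m. The fourth (chr14:82964801-83035800, 71.0 kb, 34.2% GC) overlaps no annotated gene and opens a domain of 180 kb, of which 60.2 kb was in state 7 in CR 12m. The fifth (chr4:27229801-27299000, 69.2 kb, 36.9% GC) is also intergenic, between Manea at 883 kb and Epha7 at 1514 kb.

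Genes covered little of the stretches. Gene spans of any RefSeq type took 22.9% of their bases, against 44.3% in lasting quiescence and 49.5% over the autosomes, with the stretches lower than lasting quiescence on 19 of 19 autosomes. Within genes the stretches were mostly intronic. Exons made up 4.65% of their bases in genes and 7.87% of those of lasting quiescence, lower on 17 of 19 autosomes. The set in state 7 under both diets had 18.6% of its bases in genes, below the stretches, which were lower on only 5 autosomes.

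Of 20558 autosomal protein-coding genes, 1261 (6.13%) had at least 1 base in a stretch and 297 had 50% or more of their span there. Of the summed span of all 20558, 3.10% lay in stretches. Long genes were reached far more often, since 168 of the 216 genes of 500 kb or more held a stretch, and 10.2% of their summed span was in stretches, against 0.891% for genes under 20 kb. A longer gene has more bases in which a stretch can lie. The part of each length class that was quiescent in SD 3m, and so open to the rule, was not measured.

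Most of the genes with most bases in stretches were giant genes of neurons. Lrp1b, a receptor of the low-density lipoprotein receptor family, led with 1074 kb (52.2% of its span) in 96 stretches with a median of 8.1 kb. In Lrp1b, state 7 took 1.80% of the span for SD 3m, 73.2% for SD 12m and 22.8% for CR 12m. Ptprd, a receptor tyrosine phosphatase of synapses, followed with 662 kb (29.2%), then Cntnap2, which organises channels along axons, with 642 kb (28.7%), and Dpp10, an auxiliary subunit of neuronal potassium channels, with 590 kb (39.0%). The next were Csmd3 (562 kb), a large membrane protein of the brain, Nkain2 (549 kb), a partner of the sodium pump, Lrrc4c (480 kb), a netrin-G ligand of synapses, and Ccser1 (467 kb). Cadm2 (439 kb) and Mdga2 (438 kb) encode neural adhesion proteins, and Cntn5 (354 kb) a contactin. Among the genes named here, Mdga2 had the highest share of its span, at 57.4%, and Cntn5 the lowest, at 27.9%. These genes were chosen for their bases in stretches, and in each of them state 7 covered more of the span in SD 12m (34.9% to 73.2%) than in CR 12m (5.74% to 22.8%) or SD 3m (0% to 2.77%).

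**Figure D4:**
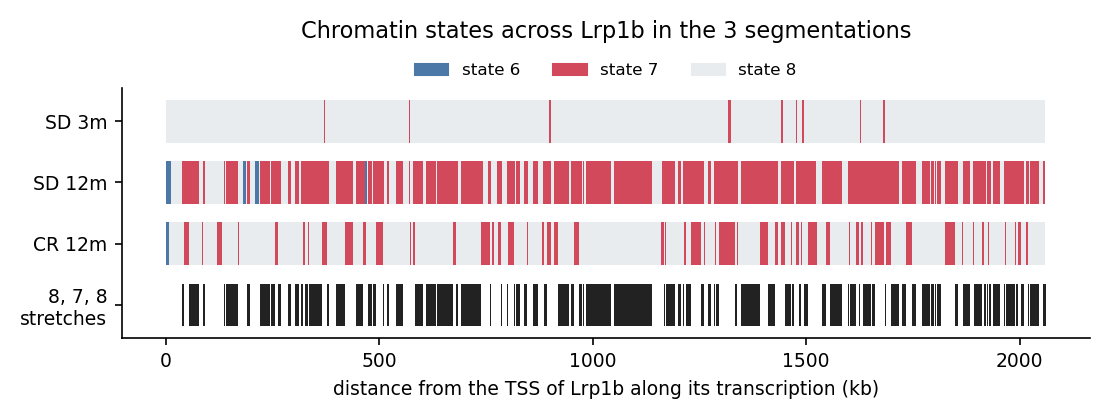
Chromatin states across Lrp1b in SD 3m, SD 12m and CR 12m and, in the lowest row, the 96 stretches (black), drawn to scale against the distance from its TSS in kb. State 7 fills 73.2% of the span in SD 12m, 22.8% in CR 12m and 1.80% in SD 3m, and the start of the gene is in state 6 in SD 12m and CR 12m.

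Smaller genes were reached in other ways. Of genes of 20 kb or more, Skint1 had the highest share, with 94.3% of its 23.3 kb in 1 stretch. Skint1 is an immunoglobulin-like protein of thymus and skin that selects a class of skin T cells. Next came Sgo2b of the shugoshin family (86.6%), the pheromone receptor Vmn2r59 (84.7%), Cylc2, a protein of the sperm head (82.5%), and Agtr1b, an angiotensin II receptor (81.8%). Vmn2r76 (75.2%), Vmn2r102 (66.2%), Vmn2r93 (65.5%), Vmn2r99 (62.8%) and Vmn2r75 (62.0%) are pheromone receptors too. Pi15 (68.9%), a peptidase inhibitor, and Crispld1 (65.3%), a related secreted protein, both lie on chromosome 1. Vmn2r59, Vmn2r76, Vmn2r102 and Vmn2r93 were in state 7 over 100% of their span in SD 12m, and in CR 12m over 9.75%, 24.8%, 33.8% and 17.5%. Several of these genes have near-identical copies, and how reads that match more than 1 copy bear on their labels was not tested.

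Gene groups of the nervous system and the senses lay in the stretches more than all genes did, as counted from lists that were drawn up with results of these data known. Of 51 synaptic and neuronal adhesion genes, 47 held at least 1 base of a stretch (92.2%, against 6.13% of all protein-coding genes), and 17.3% of their summed span lay in stretches, against 3.10%. Of their DNA that was quiescent in SD 3m, 18.25% lay in stretches, against 5.89% for all genes. The list includes genes named above for their bases in stretches, such as Lrp1b, Ptprd and Cntnap2. Many of its genes are long. Of the 216 protein-coding genes of 500 kb or more, 168 held a stretch, and 10.2% of their summed span lay in stretches. The part of length in the count of the list was not tested. Epha5, a receptor of axon guidance, had the highest share, 53.7% of its span. Csmd2, Nrxn2, Ntm and Sorcs3 were the 4 without a stretch. Glutamate receptors had 12.2% of their span in stretches (12 of 26 genes), led by Grik2 with 41.5%, and GABA receptors 11.1% (7 of 16), led by Gabrg3 with 28.1%. Potassium channels reached 6.00% (14 of 92), with Kcnj3 at 41.1%. Of the DNA quiescent in SD 3m, 13.2% lay in stretches for glutamate receptors, 11.7% for GABA receptors and 7.8% for potassium channels, against 5.89% for all genes. Among adhesion molecules, cadherins had 14.1% (12 of 23), with Cdh7 at 61.2%, and protocadherins outside the clusters 22.6% (5 of 10), with Pcdh7 at 34.2%. Of their quiescent DNA, 15.5% and 23.2% lay in stretches.

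The clustered protocadherins, cell surface proteins that give neurons individual identities, stood, with the numbered Zfp genes, apart from the other lists in lying more in the set in state 7 under both diets. They had 7.66% of their span in stretches and 13.2% in that set. Of their DNA that was quiescent in SD 3m, 12.5% lay in stretches, against 5.89% for all genes and 11.3% for all autosomal bins quiescent in SD 3m. State 7 took 39.2% of the summed span in SD 12m, 32.7% in CR 12m and 17.5% in SD 3m. Spans of these genes overlap, so that a base can be counted more than once. Pcdhb17 lay wholly in a stretch.

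Receptor genes of smell lay in the stretches more than all genes did, both by count (6.13% of all protein-coding genes) and by bases (3.10% of their span). Of 1099 olfactory receptor genes, 218 held at least 1 base of a stretch (19.8%), of which 149 lay wholly inside, such as Olfr1000. Vomeronasal receptors, which sense pheromones, were reached in 74 of 349 genes (21.2%), of which 12 were wholly inside, such as Vmn1r200, so most of those reached were reached in part. The summed spans were in stretches to 15.4% and 14.2%. State 7 took 1.41%, 23.4% and 8.11% of the olfactory spans in SD 3m, SD 12m and CR 12m, and 6.68%, 31.5% and 17.7% of the vomeronasal spans. In the prolactin family, hormones of pituitary and placenta that sit in a cluster on chromosome 13, 10 of 25 genes were reached (40%) and 23.5% of the span was in stretches, with Prl3b1 wholly inside. Taste receptors (4 of 38 genes, or 10.5%, and 5.21% of the span) included Tas2r121, and defensins included Defb4, each wholly inside a stretch. Defensins were above all genes by bases (6.70% of the span) but slightly below them by count (4 of 70, or 5.71%). Of the DNA quiescent in SD 3m, 18.04% lay in stretches for olfactory and 15.72% for vomeronasal receptors, against 5.89% for all genes. Prolactin genes had 24.64%, defensins 9.51% and taste receptors 6.03%. By this share taste receptors were near all genes. Their span was quiescent in SD 3m to 86.4%, against 52.5% for all genes, and this DNA came to only 55.8 kb.

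Other lists had less of their span in the stretches than the 3.10% of all protein-coding genes. The rule admits only DNA that was quiescent in SD 3m, which made up 52.5% of the summed span of all these genes. For several lists it left little that could be counted. No base of a stretch lay in the 39 Hox genes, which had no quiescent DNA in SD 3m, nor in the 68 cytosolic ribosomal proteins (2.29% quiescent in SD 3m), the 5 silent markers of other tissues (6.74%), the 20 type I interferons (7.19%), the 30 plasma protein genes (7.52%) or the 10 hepatocyte markers (8.06%). The counts of 0 in these lists are largely set by the rule and are no finding. The 22 major urinary proteins, pheromone carriers that the liver secretes, were also without a stretch, with 53.3% of their span quiescent in SD 3m. That quiescent DNA came to only 78.9 kb in 17 genes, a small base for a count of 0.

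For the remaining lists the share of quiescent DNA in the stretches is set beside the 5.89% over all protein-coding genes, and the share of genes with at least 1 base beside the 6.13% of all. Cytochrome P450 genes had 1.37% of their quiescent DNA in stretches (4 of 93 genes, or 4.30%, with Cyp2j12 the most at 11.5% of its span). Ugt, Gst and Sult genes, which conjugate drugs and hormones, had 1.90% (4 of 64, or 6.25%, with Sult3a2 at 17.6%). Oxidative phosphorylation genes had 1.45% (1 of 94, Sdhaf3, at 7.17% of its span), and the Sox, Pax, Fox and Pou factors 0.355% (1 of 82, Foxp2, at 1.11%). C-type lectin and Klr receptors had 1.47% (5 of 60, or 8.33%, with Klri1 at 14.7%), and pregnancy-specific and Ceacam genes 1.66% (3 of 28, or 10.7%, with Ceacam12 at 11.6%). The lectin and Ceacam lists thus lay above the share of all genes by count and below it by bases, and the Ugt, Gst and Sult list was near it by count. The numbered Zfp genes had 1.33% of their quiescent DNA in stretches (18 of 360 genes), with Zfp93 at 51.0% of its span. State 7 took 21.7% of the summed Zfp span in SD 12m, but also 21.7% in SD 3m and 19.7% in CR 12m.

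**Figure D5:**
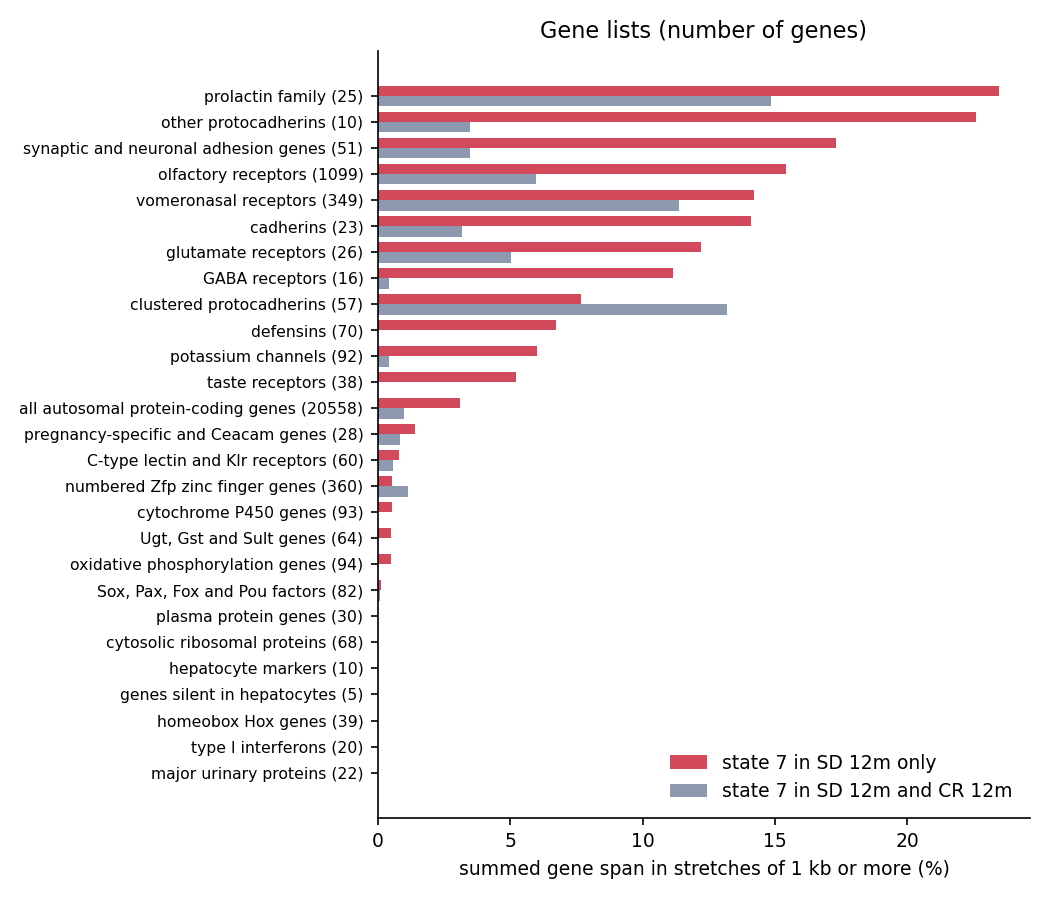
Percent of the summed span of the genes of each list (x axis) that lies in stretches of 1 kb or more in state 7 in SD 12m only, or in SD 12m and CR 12m, with the number of genes in parentheses. The 12 lists above the 3.10% of all autosomal protein-coding genes hold mostly neuronal, sensory, adhesion and prolactin genes, and 7 lists stand at 0. The lists differ in how much of their span was quiescent in SD 3m, and the bars are not corrected for it.

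Few stretches held the start of a gene. Of the 25880 stretches, 1292 (4.99%) held the TSS of at least 1 RefSeq gene and 322 (1.24%) that of a protein-coding gene. Per Mb the stretches had 7.54 TSS, against 11.9 in lasting quiescence and 19.5 over the autosomes. Of the 1384 TSS in stretches, 48.8% belonged to pseudogenes, compared with 34.1% in lasting quiescence. The set in state 7 under both diets had 7.86 TSS per Mb, 52.3% of them of pseudogenes. Protein-coding starts numbered 342, which is 1.66% of all autosomal protein-coding genes, and 187 of these (54.7%) belonged to olfactory receptors and 35 (10.2%) to vomeronasal receptors, lists that make up 5.35% and 1.70% of protein-coding genes. The rule admits only starts that were quiescent in SD 3m. Of the olfactory and vomeronasal spans 85.4% and 90.45% were quiescent then, against 52.5% for all genes. The makeup of quiescent starts by family was not measured, so part of this excess is set by the rule. Of the 187 olfactory starts, 145 belong to gene models whose span is a multiple of 3 bases, as a model that holds only coding sequence would be, so the start given there may be that of the coding sequence.

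The protein-coding starts in the longest stretches were those of Gm5415 (a stretch of 50.8 kb), of Olfr298 and Olfr299 (46.6 kb), of Vmn1r70 (44.8 kb), of Olfr787, Olfr788 and Olfr789, which share 1 stretch of 38.2 kb, and of Klhl1 (37.8 kb). The 7 genes other than Klhl1 lay wholly within their stretch. In Klhl1, 52.2% of the 414 kb span was in stretches, and state 7 took 2.32% of it for SD 3m, 61.4% for SD 12m and 8.54% for CR 12m.

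Promoters in the stretches resembled those printed above. RefSeq gave a promoter for 291 of the 342 genes. The 304 promoters with their start in a stretch had a median of 1 CpG and 35.3% GC in 300 bases, against 14 CpG and 57.0% GC for 20085 autosomal protein-coding promoters. Promoters with 10 or more CpG made up 6.25% of the former and 57.9% of the latter. The letters TATAAA, searched on both strands, were found in 39.1% of the promoters in stretches and in 12.7% of all. The makeup of the gene families bears on this contrast. Olfactory receptor promoters held TATAAA in 44.3% of cases when in a stretch and in 41.3% of all cases, with a median of 1 CpG in both. Outside the olfactory and vomeronasal families, 113 promoters in stretches had a median of 3 CpG and TATAAA in 33.6%, against 15 CpG and 10.9% for all such promoters. Only starts that were quiescent in SD 3m can lie in a stretch, while the comparison sets hold promoters of any state. Promoters in lasting quiescence were not measured, so the part of the rule in these contrasts was not tested. A match of these letters is a description of the sequence and not a site.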

How the data were processed

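The deposited files hold, per the labels and the study's methods, 1 chromatin state label (1 to 8) for every 200 bp bin in SD 3m, SD 12m and CR 12m. The authors aligned reads to mm10 with BWA 0.6.2-r126, removed duplicates and reads with a mapping quality below 1 with SAMtools 0.1.18, merged the libraries of each group and ran ChromHMM, and deposited these labels as categories in place of counts or a signal. Depth per bin and replicates are thus unknown, and CR 12m, SD 12m and SD 3m rest on 29, 29 and 30 libraries.

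From the labels, stretches were merged and set against RefSeq genes and the GRCm38.p6 sequence (repeats are its lower-case bases) in Python 3.11.15 with numpy 2.4.6 and pandas 2.3.3. The merging step was run on simulated labels of 400000 bins without noise, in which 5098 of 5098 planted stretches were recovered. This checks the merging only and says nothing on noise or read depth behind the labels. The members and gene lists were chosen with earlier results of these data known. No test was run, as each group has 1 segmentation. Ranges over the 19 autosomes stand in for an error, and autosomes are not replicates. Genes named are the 12 with most bases in stretches, the 12 of 20 kb or more with the highest share, the 8 with their start in the longest stretches, those at the 5 longest stretches and the leading gene of each list. One gene that this rule names is not reported here. Csmd2, Nrxn2, Ntm, Sorcs3 and Slitrk1 were named after their values were seen. Alternatives were other length limits, joined gaps, borders or chromosome ends left out, protein-coding genes only and each autosome left out in turn.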

Additional observations from a re-analysis of the deposited data

Results flagged for a closer look

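Chromosome X lies outside the autosomal rule, and the same combination of labels was found there. It held 1075 stretches of 1 kb or more (5.54 Mb, 38.0% GC, median 3600 bp), which took 5.09% of its state 8 bins. No interval is given, because neighbouring bins are not independent. Over the autosomes the share ranged from 1.56% to 17.2%.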

How the results depend on the processing

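No paired analysis was possible because the libraries of a group were merged into 1 segmentation, so replicate numbers pair nothing in the labels. Read depth, library quality and the filter on mapping quality could not be varied, and neighbouring bins are smoothed by the model. A value was counted as moved when it changed by more than its spread over the 19 autosomes (base shares), its Wilson 95% interval (shares of stretches) or 1.5 times (counts). The Wilson interval takes stretches as independent, although several can share a domain, so it served as a limit for this count and not as an error. The GC difference of -3.83 points from lasting quiescence and the repeat difference of -0.67 points kept their signs under every alternative run. With a minimum of 5 kb, 12783 stretches remained, 56.1% of them in a domain shared with CR 12m and 7.74% with a TSS. With every bin kept these shares were 54.4% and 4.26%, and with the outer 1 kb of each stretch left out 52.8% and 4.45%. Counting protein-coding genes only, 16.5% of bases lay in genes and 1.24% of stretches held a TSS. Leaving out each autosome in turn gave 23021 to 25753 stretches, a GC difference of -3.91 to -3.74, a repeat difference of -0.84 to -0.50, 22.2% to 23.3% of bases in genes, 50.7% to 52.7% of stretches in shared domains and 4.71% to 5.11% with a TSS. The causes were not tested.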
